A study of Mus musculus with 24 samples.

Results

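The comparison described here sets the 3 libraries of hair follicle stem cells (HFSC) taken from mice of 2 years against the 3 taken at 2 months, 6 of the 24 libraries of the series. The libraries were chosen by their titles, and every gene that passed a low-count filter over those 6 libraries was tested, which left 14055 of the 49585 genes listed. All 6 came from tail epidermis of C57BL/6J mice with the genotype K5-tTA/pTRE H2B-GFP. In that pair of transgenes the keratin 5 promoter, active in basal keratinocytes, drives a transactivator that doxycycline switches off, and the transactivator drives green fluorescent protein joined to a histone. Mice of both ages, young controls included, had received doxycycline in their chow for 2 weeks. Cells were freed with trypsin, stained with antibodies, sorted by flow cytometry straight into Trizol, and turned into total RNA libraries with a stranded kit for very small inputs. The antibodies that defined the HFSC gate are not given in the sources used here, so it cannot be said which of the genes below served to sort the cells. The labels also call HFSC the bulge, and the same labels were given to both ages. The other 18 libraries hold HFSC at 1.5 years and slow-cycling label-retaining (LRC) and fast-cycling non-label-retaining (nLRC) epidermal stem cells at 2 months, 1.5 years and 2 years.

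The bulge is the part of the resting hair follicle, just under the sebaceous gland, where stem cells wait between rounds of hair growth. In mouse skin these cells are known by the surface protein CD34, by keratin 15 and by transcription factors such as Lhx2, Sox9 and Tbx1, and they are held at rest by BMP signals and released by Wnt signals. Keratinocytes between the follicles leave the basal layer, replace keratins 5 and 14 with keratins 1 and 10, and later make the loricrin, involucrin and filaggrin of the cornified layer.

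Reads were counted over whole genes, introns included, and the HFSC libraries held 8421582 to 13060849 such reads. Levels are given in CPM, the usual depth-scaled count of reads, here with library sizes adjusted by TMM factors, and values of a gene in 3 libraries are listed in the order of their replicate numbers. A gene was called when the adjusted p of edgeR's quasi-likelihood F test, Benjamini-Hochberg over all 14055 genes, was under 0.05. Replicate 2 of 2 months stood apart, with 35.0% of gene reads in exons against 53.6 to 56.5% in the other 5 libraries (exact permutation p = 0.5 between the ages), and 26.8% of gene reads on the ribosomal RNA locus Rn18s-rs5 against 6.07 to 11.3%. Xist, the transcript of the inactive X chromosome, was above 100 CPM in 1 of 3 libraries at 2 months and in 2 of 3 at 2 years, so the mix of sexes was not the same at both ages, although 0 of the 5 sex-linked genes read were called by edgeR (0 at an unadjusted p under 0.05 and 0 by DESeq2). The labels do not say whether replicates were separate animals or pools, so p-values measure the spread between these libraries, which may be technical. In sorted bulk samples, fewer cells of a type and less RNA per cell cannot be told apart.

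Most of the genes that mark the bulge were lower in the libraries labelled HFSC at 2 years than in those of 2 months. Of 30 bulge identity genes tested, 20 were lower at 2 years, 1 was higher and 9 were not called, and their median log2 change was -1.50. Members of this list and of the lists below were chosen with earlier results of these data known. Over all 14055 genes, 1792 or 12.7% were called, with 991 (7.05%) higher and 801 (5.7%) lower at 2 years, and the median log2 change was 0.00. At an unadjusted p under 0.05 there were 3592 genes. The ages did not overlap in 4410 genes, 31.4% of those tested, so a gap between the ages in a single gene is common. Of the 6 fits that leave out 1 library, the one without replicate 3 of 2 months called the fewest genes, 1183, with 644 higher and 539 lower. Without replicate 2 of 2 months, the library that stood apart, it was 1445, with 789 higher and 656 lower, and with a term for sex, added after the data were seen, it was 1472. In a fit with the other 18 libraries, with a larger estimate of the spread, the same 6 libraries gave 981 called genes, and replicates 1 and 2 alone, by the file names the first library set, gave 890.

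**Figure D1:**
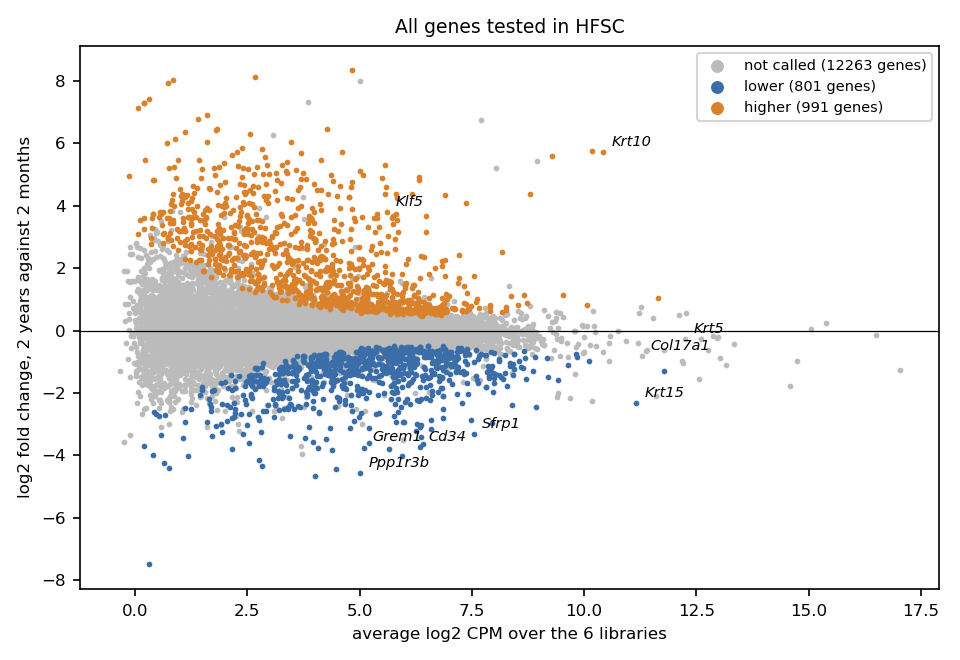
Each point is 1 of the 14055 genes tested in HFSC, with its average log2 CPM over the 6 libraries on the horizontal axis and its log2 fold change, 2 years against 2 months, on the vertical axis. Orange points are the 991 genes called higher at 2 years, blue points the 801 called lower and grey points the rest. Krt10 and Klf5 lie far above 0, while Cd34, Grem1, Sfrp1 and Ppp1r3b lie far below it and Krt5 and Col17a1 are grey.

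Cd34 (chr1:194938819-194961279, GENCODE M21 on GRCm38), which encodes the surface protein by which bulge cells are usually recognised, read 196, 139.9 and 118 CPM at 2 months and 10.5, 13.5 and 10.1 CPM at 2 years. The 2 year libraries lay far below every 2 month library, a 13.3-fold lower level (log2 change -3.74, SE 0.23, edgeR adjusted p = 6.80e-06). Krt15 (chr11:100131758-100135928), a keratin of bulge cells, read 3587, 3993 and 3871 CPM at 2 months and 607, 959.9 and 713 CPM at 2 years, 5.02-fold lower with no overlap between the ages (log2 change -2.33, SE 0.27, edgeR adjusted p = 2.46e-04). The 3 young libraries were close together in both genes, and so were the 3 old ones.

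The transcription factors of the bulge list fell by different amounts. Tbx1 (chr16:18580979-18590671), a T-box factor, read 99.4, 100.5 and 109 CPM at 2 months and 23.4, 17.8 and 15.4 CPM at 2 years (log2 change -2.45, SE 0.19, edgeR adjusted p = 2.00e-05). Lhx2 (chr2:38339281-38369733), a LIM homeobox factor, read 69.03, 82.5 and 73.3 CPM at 2 months and 24.7, 12.3 and 19.1 CPM at 2 years (log2 change -2.0002, SE 0.24, edgeR adjusted p = 3.04e-04). Sox9 (chr11:112782224-112787760), needed to form the bulge, read 316, 332 and 397 CPM at 2 months and 109.6, 99.1 and 154 CPM at 2 years (log2 change -1.53, SE 0.21, edgeR adjusted p = 7.47e-04). In each of these the ages did not overlap. Tcf7l1, a repressor of Wnt targets, was 2.73-fold lower (log2 change -1.45, SE 0.18) and Tcf7l2 was 2.02-fold lower (log2 change -1.02, SE 0.20).

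Nfatc1, linked to stem cell rest, and Nfib, a partner of bulge chromatin factors, were lower by 1.57 and 1.67 fold, and both calls were weak. Nfatc1 had an edgeR adjusted p of 0.044, which became 0.119 without replicate 2 of 2 months, 0.051 without replicate 3 of 2 months, and 0.076, 0.0895 and 0.144 without replicates 1, 2 and 3 of 2 years. Nfib had an edgeR adjusted p of 0.0362, which was between 0.0551 and 0.111 without any 1 of the 6 libraries. Barx2, a homeobox factor, was 2.07-fold lower, and its edgeR adjusted p of 0.0287 rose to 0.0698, 0.101 and 0.0605 without replicate 2 or 3 of 2 months or replicate 3 of 2 years. Foxc1 read 24.7, 30.2 and 23.9 CPM at 2 months and 23.6, 22.9 and 23.4 CPM at 2 years and Runx1 read 82.7, 76.8 and 78.4 CPM at 2 months and 72.6, 34.1 and 65.2 CPM at 2 years, and neither was called (edgeR adjusted p = 0.638 and 0.268). For Foxc1 the 6 libraries lay close together.

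Secreted and matrix products of the bulge showed some of the largest falls of all tested genes. Sfrp1 (chr8:23411502-23449632), a secreted Wnt antagonist, read 317, 354 and 346 CPM at 2 months and 39.4, 24.2 and 38.9 CPM at 2 years, 9.91-fold lower (log2 change -3.31, SE 0.22, edgeR adjusted p = 8.38e-06). Grem1 (chr2:113746164-113758646), a secreted BMP antagonist, read 58.3, 56.7 and 75.7 CPM at 2 months and 7.69, 1.56 and 4.74 CPM at 2 years, 13.5-fold lower (log2 change -3.75, SE 0.45, edgeR adjusted p = 0.00111). Dkk3, of the Dickkopf family, read 305, 243 and 222 CPM at 2 months and 49.97, 58.04 and 47.2 CPM at 2 years (log2 change -2.31, SE 0.18). All 3 had a wide empty gap between the ages. Ltbp2, which binds microfibrils, was 12.4-fold lower, Angptl7, an angiopoietin-like secreted protein, 10.99-fold, Ctgf, a matricellular protein, 7.28-fold, Postn, the matrix protein periostin, 2.79-fold and Npnt, the nephronectin of the bulge basement membrane, 2.50-fold. Postn and Npnt lost their call in the fit over all 24 libraries. Lgr5, a receptor for R-spondins, read 70.6, 101 and 90.97 CPM at 2 months and 35.4, 12.3 and 16.9 CPM at 2 years (log2 change -2.02, SE 0.37, edgeR adjusted p = 0.00798), and also lost its call in that fit.

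Among the remaining members of the bulge list, Fst, the activin and BMP antagonist follistatin, was the one called higher, with 3.76, 2.77 and 3.04 CPM at 2 months and 11, 10.3 and 9.58 CPM at 2 years (log2 change 1.68, SE 0.32), a call lost in the fit over all 24 libraries. Gas1, a Hedgehog co-receptor, was 2.98-fold lower. Fgf18 read 7.14, 10.02 and 5.93 CPM at 2 months and 1.61, 3.33 and 0.285 CPM at 2 years and Wif1 read 4.79, 8.32 and 3.04 CPM at 2 months and 2.50, 0.728 and 1.04 CPM at 2 years; both lay lower in every old library but were not called (edgeR adjusted p = 0.06 and 0.0697). Vdr, Hopx, Cdh13, Krt24 and Bmp6 were not called either. The summed level of the 30 genes was 9689, 10070 and 9173 CPM at 2 months and 3600, 3157 and 3420 CPM at 2 years, so each old library held about the same total, and the exact permutation p was 0.1, the smallest that 3 against 3 allows. Without replicate 2 of 2 months, 17 of the 30 genes were lower and 1 was higher.

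**Figure D2:**
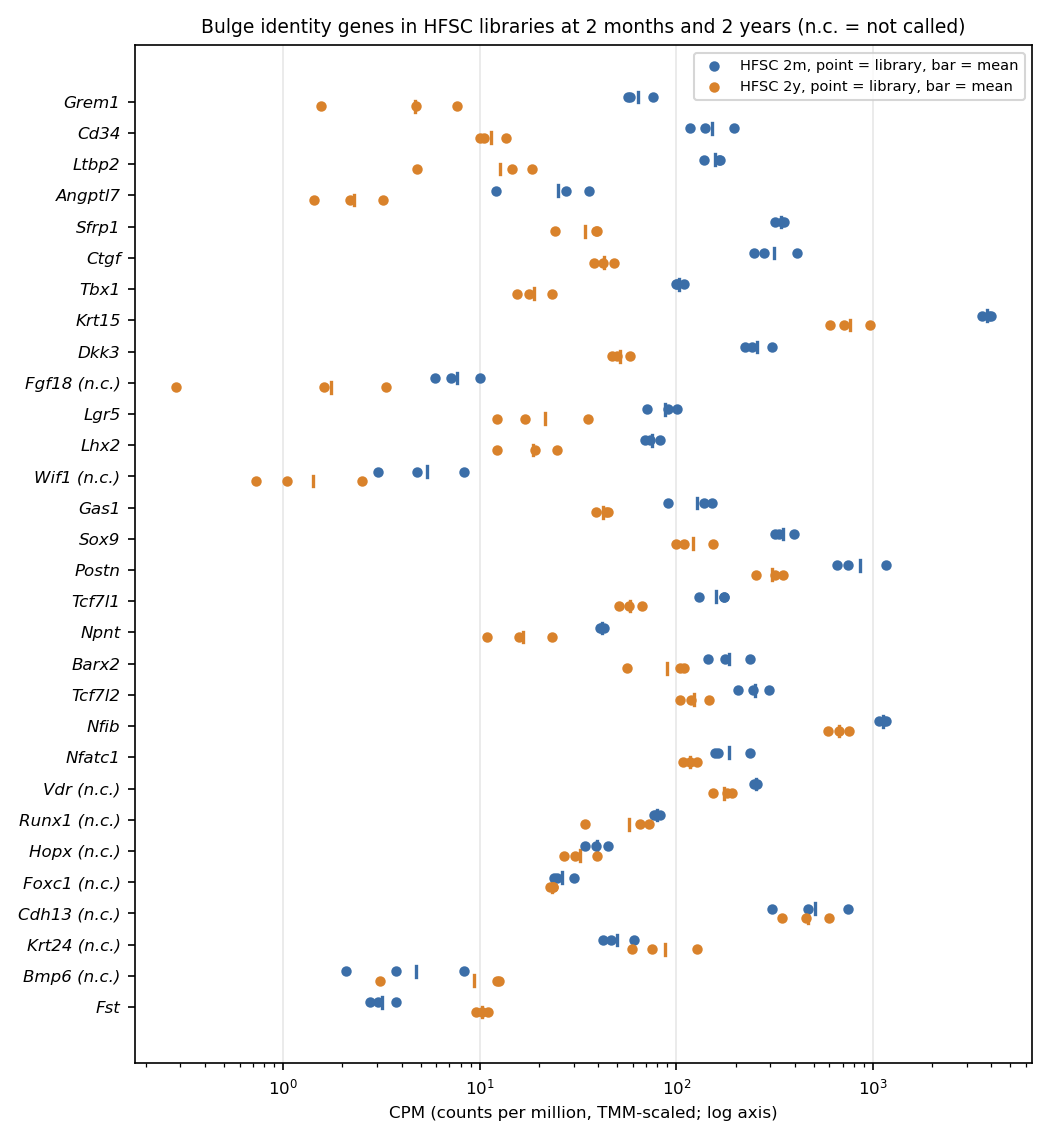
CPM of the 30 bulge identity genes on a log axis, with 1 point per HFSC library and a bar at the mean of each age, blue for 2 months and orange for 2 years, ordered by log2 change, and n.c. for genes not called. From Grem1 down to Dkk3 the orange points stand well to the left of the blue ones, Foxc1, Hopx and Cdh13 lie at similar levels at both ages, and Fst alone among the called genes has its orange points on the right.

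By one rule over all genes (called, average log2 CPM of at least 3, no overlap between the ages), the 12 strongest falls, 4 of them in the bulge list, were Ppp1r3b, Scrg1, Sorbs2, Atp2a3, Pdlim3, Grem1, Cd34, Ltbp2, Col6a2, Egflam, Egfl6 and Angptl7. Since that list was chosen with earlier results known, the 4 are no separate support for its fall. Ppp1r3b (chr8:35375739-35388139), which targets a phosphatase to glycogen, read 53.2, 50.2 and 81.6 CPM at 2 months and 3.75, 1.35 and 2.56 CPM at 2 years (log2 change -4.57, SE 0.35, edgeR adjusted p = 2.78e-05). Scrg1 (chr8:57455923-57477585), a small secreted protein, read 41.7, 40.8 and 44.3 CPM at 2 months and 1.61, 0.832 and 3.32 CPM at 2 years (log2 change -4.44, SE 0.38, edgeR adjusted p = 5.02e-05). In both, all 3 young libraries were above all 3 old ones, as the rule required, and by a wide margin. Egfl6, a basement membrane protein of the upper bulge, was 11.2-fold lower and Col6a2, a collagen VI chain, 12.1-fold lower. Of these 12, Egflam alone lost its call under an alternative, in the fit over all 24 libraries. Among the falls 6 of 12, and among the rises 7 of 12, overlap another annotated gene, and since the strand setting is not given, reads of such pairs cannot be separated.

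The 12 strongest rises by the same rule were Hrnr, Serpina3b, Tmprss4, Krt1, Krt10, Serpina3j, Foxq1, Krt2, Serpinb3b, Serpinb13, Tnfrsf19 and Slc16a9. Krt1, Krt10, Krt2 and Hrnr are products of differentiating epidermis and the serpins are protease inhibitors of multigene families, among whose copies reads may have been split. Tmprss4 (chr9:45172726-45204092), a membrane serine protease, read 0.470, 0 and 0.371 CPM at 2 months and 19.3, 15.1 and 29.98 CPM at 2 years (log2 change 6.02, SE 0.54, edgeR adjusted p = 5.03e-05). Tnfrsf19 (chr14:60963875-61046490), a receptor of the tumour necrosis factor family, read 2.54, 2.00 and 2.30 CPM at 2 months and 122, 52.5 and 102 CPM at 2 years, 39.8-fold higher (log2 change 5.32, SE 0.35, edgeR adjusted p = 1.39e-05). Foxq1, a forkhead factor, read 0.657, 0 and 0.593 CPM at 2 months and 26.1, 17.99 and 31.3 CPM at 2 years (log2 change 5.70, SE 0.51). In these 3 genes the young libraries held few reads, and every old library was above them all, as the rule required. Slc16a9, a carnitine transporter, also rose (log2 change 5.31, SE 0.67). Hrnr read 0, 0.154 and 0.297 CPM at 2 months and 42.02, 9.78 and 117 CPM at 2 years, and its edgeR adjusted p of 0.0261 became 0.144, 0.131 and 0.13 without replicates 1, 2 and 3 of 2 months and 0.0744 without replicate 1 of 2 years. Serpina3j (edgeR adjusted p = 0.0178) reached 0.121, 0.0873 and 0.0537 without replicates 1, 2 and 3 of 2 months. Serpinb13 (edgeR adjusted p = 0.0344) reached 0.144, 0.166 and 0.175 without those and 0.0873 without replicate 3 of 2 years. In all 3 serpin and hornerin genes just named, old replicate 2 was the lowest of the old libraries.

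**Figure D3:**
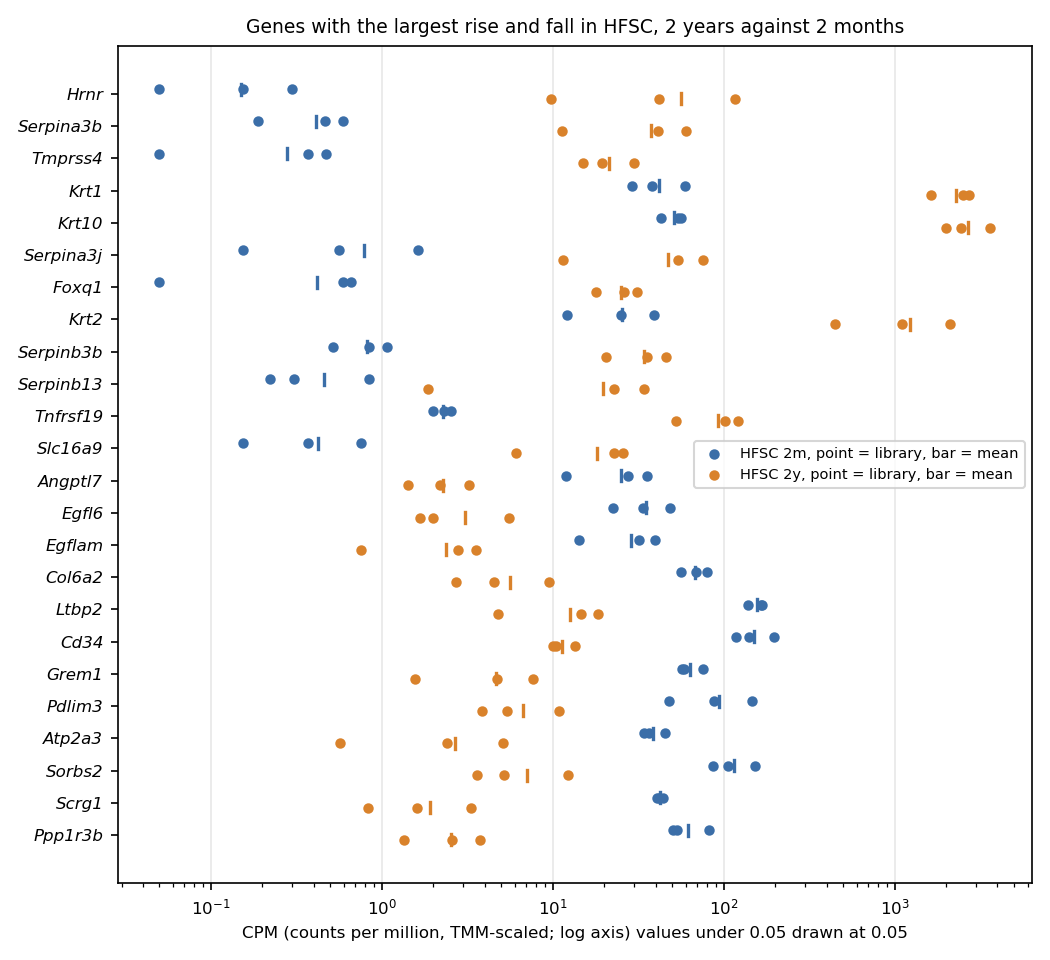
CPM, on a log axis, of the 12 strongest rises and the 12 strongest falls, 1 point per HFSC library and a bar at the mean of each age, blue for 2 months and orange for 2 years. Krt1, Krt10 and Krt2 are the most abundant rising genes at 2 years, and in the falling genes the order of the colours is reversed.

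Genes of interfollicular differentiation were the list with the largest called share among those with at least 10 tested members. Of 29 tested, 21 were higher at 2 years, 1 was lower and 7 were not called, with a median log2 change of 3.51 against 0.00 over all genes. Krt10 (chr11:99385254-99389364), a keratin of suprabasal cells, read 54, 43.1 and 56.3 CPM at 2 months and 2452, 1998 and 3642 CPM at 2 years, 52.7-fold higher (log2 change 5.72, SE 0.33, edgeR adjusted p = 5.24e-06). Krt1 (chr15:101845426-101850794), its partner, read 28.9, 38.1 and 59.2 CPM at 2 months and 1638, 2710 and 2504 CPM at 2 years, 54.2-fold higher (log2 change 5.76, SE 0.37, edgeR adjusted p = 7.38e-06). All old libraries were far above all young ones in both genes. Krt2, a keratin of the upper spinous layer, read 39.3, 12.2 and 24.99 CPM at 2 months and 1112, 448 and 2125 CPM at 2 years, and spread more among the old libraries (log2 change 5.58, SE 0.76, edgeR adjusted p = 0.00451).

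Adhesion, enzyme and transcription factor members moved the same way. Dsc1, a desmosomal cadherin of the upper layers, read 5.26, 3.39 and 6.23 CPM at 2 months and 154, 109 and 199 CPM at 2 years (log2 change 4.91, SE 0.29), and Dsg1a, another, was 5.74-fold higher. Ly6d, a surface protein, read 8.36, 2.16 and 5.41 CPM at 2 months and 137, 129 and 199 CPM at 2 years (log2 change 4.81, SE 0.40). Tgm3, a transglutaminase, rose 13.4-fold, Casp14, a protease of cornification, 23.98-fold, Elovl4, which makes very long fatty acids, 12.2-fold, and the factors Grhl1, Grhl3 and Ovol1 4.36, 7.14 and 10.7 fold. Each of these kept its call under every alternative run. Of the late cornified products, Lor and Ivl were at low levels even in the old libraries, while Hrnr, given above, was higher than both in each. Lor, the major cornified envelope protein, read 0.470, 0 and 0.371 CPM at 2 months and 18.5, 2.81 and 15.4 CPM at 2 years (log2 change 5.23, SE 0.86, edgeR adjusted p = 0.00392), and was not called in the first library set alone. Ivl, an envelope precursor, read 0.564, 0.771 and 0.816 CPM at 2 months and 7.96, 7.07 and 3.70 CPM at 2 years (log2 change 3.10, SE 0.53). The exception was Calml3, a calmodulin-like protein, which read 491, 406 and 399.8 CPM at 2 months and 181, 91.2 and 236 CPM at 2 years and was lower (edgeR adjusted p = 0.0154, 0.0647 without replicate 1 of 2 months and 0.0537 without replicate 1 of 2 years). The summed list read 1486, 1317 and 1353 CPM at 2 months and 8498, 7005 and 11650 CPM at 2 years, with no overlap (exact permutation p = 0.1). Without replicate 2 of 2 months 19 members were higher and 1 lower.

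Promoter windows of 5 genes from these opposite lists are given, chosen after their values and windows were seen, because several of the rising differentiation genes hold the same short motifs. The windows are the 250 bases before the start in RefSeq on GRCm38.p6, each read 5′ to 3′ on the strand of the gene, and capitals mark TATAAA, the TATA box, and TGANTCA, the AP-1 motif. Both strands were searched, and the letters were also searched for AACCNGTT (grainyhead) and TAATTA (LIM homeobox), which these 5 windows do not hold. The windows lie at chr1:194938571-194938820 on the plus strand for Cd34, chr11:99389365-99389614 on the minus strand for Krt10, chr3:92083143-92083392 on the minus strand for Lor, chr3:92573736-92573985 on the minus strand for Ivl and chr7:30787655-30787904 on the plus strand for Krtdap, a secreted keratinocyte protein that was 12.8-fold higher at 2 years.
Cd34: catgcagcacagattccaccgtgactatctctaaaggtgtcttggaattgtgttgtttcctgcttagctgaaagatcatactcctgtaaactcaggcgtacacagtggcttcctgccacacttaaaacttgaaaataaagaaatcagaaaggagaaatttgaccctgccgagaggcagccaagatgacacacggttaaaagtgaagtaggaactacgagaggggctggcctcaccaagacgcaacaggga
Krt10: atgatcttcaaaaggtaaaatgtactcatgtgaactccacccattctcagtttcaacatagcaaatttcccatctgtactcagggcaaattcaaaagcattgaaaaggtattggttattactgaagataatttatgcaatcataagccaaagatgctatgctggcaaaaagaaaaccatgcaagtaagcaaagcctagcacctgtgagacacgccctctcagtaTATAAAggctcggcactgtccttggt
Lor: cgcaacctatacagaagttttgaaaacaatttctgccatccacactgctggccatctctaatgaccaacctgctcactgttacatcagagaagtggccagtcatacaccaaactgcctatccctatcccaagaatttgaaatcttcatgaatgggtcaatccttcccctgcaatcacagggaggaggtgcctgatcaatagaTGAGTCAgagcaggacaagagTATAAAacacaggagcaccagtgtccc
Ivl: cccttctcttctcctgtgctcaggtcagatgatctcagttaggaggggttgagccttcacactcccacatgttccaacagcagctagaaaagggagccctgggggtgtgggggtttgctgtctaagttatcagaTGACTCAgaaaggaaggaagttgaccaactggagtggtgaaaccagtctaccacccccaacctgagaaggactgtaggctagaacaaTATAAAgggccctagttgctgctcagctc
Krtdap: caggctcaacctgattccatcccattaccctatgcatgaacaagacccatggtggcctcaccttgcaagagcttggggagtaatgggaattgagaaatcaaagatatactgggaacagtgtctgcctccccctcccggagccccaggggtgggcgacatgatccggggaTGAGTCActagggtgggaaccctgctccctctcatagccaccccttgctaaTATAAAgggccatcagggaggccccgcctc

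The TATA box began 26, 27, 29 and 30 bases before the start in Krt10, Lor, Ivl and Krtdap, and Lor, Ivl and Krtdap also had an AP-1 match 48, 116 and 81 bases before it. Among 10193 tested genes with a window, 7.91% held TATAAA, 5.65% held TGANTCA and 0.824% held both. The 716 genes called higher held them in 12.3%, 8.80% and 1.82%, and the 598 called lower in 8.86%, 4.68% and 0.669%. Of 21 differentiation genes with a window, 8 held TATAAA, 8 held TGANTCA and 5 held both (Flg, Ivl, Krtdap, Lor and Sprr1a), and of 19 bulge genes 3 held TATAAA and 0 held TGANTCA. A match is a run of letters in this window and says nothing of whether a factor binds there.

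Of 13 genes of basal epidermis outside the bulge, 6 were higher, 1 was lower and 6 were not called (median log2 change 0.55). Tmprss4 and Slc16a9, both given above among the strongest rises, are in this list, which was chosen with earlier results known. The summed level of the list read 10250, 6542 and 8256 CPM at 2 months and 8628, 8146 and 11210 CPM at 2 years, and the ages overlapped (two-sided exact permutation p = 0.6). Ly6a, the surface protein Sca-1 of interfollicular and upper follicle cells, read 1.31, 2.93 and 1.33 CPM at 2 months and 11.8, 26.1 and 17.7 CPM at 2 years, 10.4-fold higher (log2 change 3.38, SE 0.43, edgeR adjusted p = 4.34e-04). Efemp1, a fibulin, and Mt4, a metallothionein of stratified epithelium, were 32.8 and 26.9 fold higher. Thbs1, the matrix protein thrombospondin, fell 5.25-fold. Krt5, shared by basal cells of both compartments, read 6898, 4163 and 5003 CPM at 2 months and 4069, 4255 and 4899 CPM at 2 years and was not called (edgeR adjusted p = 0.606). Krt14, its partner, was 2.08-fold higher with an edgeR adjusted p of 0.0365, which became 0.0968 and 0.145 without replicates 2 and 3 of 2 months and 0.0977 and 0.143 without replicates 1 and 3 of 2 years.

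Of 19 genes of the upper follicle and sebaceous gland, 12 were higher and 7 were not called, with a median log2 change of 2.74. Krt79, a keratin of the duct that links gland and follicle, read 18.6, 10.6 and 24.99 CPM at 2 months and 345, 259 and 337 CPM at 2 years (log2 change 4.10, SE 0.30, edgeR adjusted p = 2.12e-05). Scd1, a fatty acid desaturase of sebocytes, read 30.4, 32.7 and 59.8 CPM at 2 months and 1343, 519 and 666 CPM at 2 years (log2 change 4.36, SE 0.44, edgeR adjusted p = 3.27e-04). Cst6, a cystatin, rose 11.7-fold, Plet1, a surface protein of the isthmus, 2.99-fold, Pparg, the nuclear receptor of sebocytes and adipocytes, 8.61-fold, and Cidea, a lipid droplet protein, 35.9-fold. Old replicate 1 was the highest library for Scd1 and Cidea, and the 3 old libraries were close in Krt79. Summed over the list the levels were 445, 411 and 582 CPM at 2 months and 2686, 1453 and 1765 CPM at 2 years. Among 6 tail scale keratins tested, 1 was called higher (Krt83), and its edgeR adjusted p of 0.0469 was 0.173, 0.182 and 0.163 without replicates 1, 2 and 3 of 2 months and 0.0746 and 0.109 without replicates 1 and 3 of 2 years, while the summed level read 88.5, 19.1 and 23.1 CPM at 2 months and 1622, 123 and 2871 CPM at 2 years, low in old replicate 2. Without that library 5 of these keratins were called higher.

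Genes of the hair germ and inner bulge, the cells just below and inside the stem cells, were mostly lower. Of 13 tested, 7 were lower, 1 was higher (Dlx3, a homeobox factor) and 5 were not called, with a median log2 change of -1.29. Cxcl14, a chemokine, read 1156, 621 and 676 CPM at 2 months and 154, 155 and 138 CPM at 2 years (log2 change -2.46, SE 0.26, edgeR adjusted p = 1.47e-04). Krt17, a keratin of follicles, read 1179, 702 and 1198 CPM at 2 months and 322, 248 and 445 CPM at 2 years (log2 change -1.60, SE 0.28, edgeR adjusted p = 0.00367), and Timp3, an inhibitor of metalloproteinases, was 2.64-fold lower. Every old library lay below every young one in these 3. The number called lower dropped to 4, 5 and 4 without replicates 1, 2 and 3 of 2 months. The Dlx3 call was lost without any 1 library other than replicate 2 of 2 years (edgeR adjusted p from 0.0706 to 0.0908).

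In the BMP and TGF-beta list, 8 of 29 genes were lower, 4 were higher and 17 were not called (median log2 change -0.40). The Id genes, direct targets that encode inhibitors of helix-loop-helix factors, were lower in 3 of the 4 cases named. Id2 read 128, 87.2 and 114 CPM at 2 months and 14.5, 13.6 and 15.4 CPM at 2 years (log2 change -2.92, SE 0.19, edgeR adjusted p = 7.36e-06), Id3 fell 3.23-fold and Id4 fell 4.34-fold. Id1 read 35.03, 19.7 and 25.9 CPM at 2 months and 17.6, 14.98 and 15.2 CPM at 2 years, below the young libraries in each old one, and was not called (edgeR adjusted p = 0.0619). Of the ligands, Bmp2 read 32.1, 36.8 and 23.1 CPM at 2 months and 9.30, 11.1 and 11.4 CPM at 2 years and was lower (log2 change -1.53, SE 0.23), and Bmp7 read 39.7, 42.5 and 31.4 CPM at 2 months and 81.98, 102 and 73.2 CPM at 2 years and was higher (log2 change 1.18, SE 0.18), so the ligands moved in opposite directions. Smad7, the inhibitory Smad, fell 1.89-fold and Tgfbr2, a receptor, rose 1.67-fold, both uncalled in the fit over all 24 libraries. Of the antagonists, Grem1 fell and Fst rose, as given above.

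Wnt genes were called in both directions. Of 35 tested, 11 were lower, 8 were higher and 16 were not called, and the median log2 change was 0.09. Of the ligands, Wnt3 read 1.03, 0.771 and 0.297 CPM at 2 months and 19.2, 16.1 and 18.6 CPM at 2 years, 26.2-fold higher (log2 change 4.71, SE 0.42, edgeR adjusted p = 4.78e-05). Wnt3a read 1.03, 1.54 and 0.964 CPM at 2 months and 10.5, 16.02 and 3.13 CPM at 2 years (log2 change 3.09, SE 0.59), and Wnt4 was 1.73-fold higher. Wnt10b was at the floor of 3 reads or fewer in every young library and was at least 11-fold higher in the old ones, a call that was lost without replicate 3 of either age. The ligand Wnt5b was called lower, a call lost without replicate 1 or 3 of either age (edgeR adjusted p from 0.0672 to 0.0937). Receptors split, with Fzd10 6.36-fold higher and Fzd2, Fzd7 and Fzd3 10.5, 2.36 and 2.43 fold lower, of which Fzd3 lost its call without replicate 1 or 2 of 2 months (edgeR adjusted p = 0.0557 and 0.0578). The secreted antagonists Sfrp1 and Dkk3 fell, as given above, and Sostdc1, an antagonist of Wnt and BMP, read 89.5, 140.5 and 177 CPM at 2 months and 42.3, 50.5 and 49.7 CPM at 2 years (log2 change -1.51, SE 0.23). Axin2 (chr11:108920349-108950783), a direct target and negative regulator of the pathway, read 6.29, 10.02 and 6.89 CPM at 2 months and 30.6, 25.1 and 44.4 CPM at 2 years, 4.36-fold higher (log2 change 2.12, SE 0.28, edgeR adjusted p = 6.04e-04). The 3 old libraries were above the 3 young ones for Axin2 and for each of the Wnt ligands called higher.

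Hedgehog genes were lower where called, 6 of 11 tested, with a median log2 change of -0.69. Gli3, a transcription factor of the pathway, read 249.7, 368 and 264 CPM at 2 months and 127, 82.6 and 86.8 CPM at 2 years (log2 change -1.57, SE 0.22, edgeR adjusted p = 9.86e-04), and the co-receptors Cdon and Gas1 were 2.56 and 2.98 fold lower. These 3 kept their call in every alternative run. Gli1, a direct target, read 9.20, 7.86 and 8.90 CPM at 2 months and 3.58, 1.98 and 3.79 CPM at 2 years, and its edgeR adjusted p of 0.0231 became 0.0837, 0.05004 and 0.0925 without replicates 1, 2 and 3 of 2 months. The number of called members was 3 without replicate 2 of 2 months. It was 4 without replicate 3 of 2 months, replicate 1 of 2 years or replicate 3 of 2 years. Of 11 Notch genes 3 were higher and 1 lower. Notch3, a receptor, read 11.2, 5.70 and 17.2 CPM at 2 months and 60.2, 46.2 and 59.1 CPM at 2 years (log2 change 2.25, SE 0.33), Nrarp, a target, was 2.26-fold higher, and Lfng, which modifies the receptors, 2.26-fold lower. The Notch calls numbered 2 without replicate 3 of either age, when Notch2 and Nrarp lost theirs (for Nrarp edgeR adjusted p = 0.0537 without the young and 0.0511 without the old replicate 3).

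Genes of the basement membrane and of adhesion to it were more often lower than higher, with 15 of 34 tested lower, 3 higher, 16 not called and a median log2 change of -0.75. Tnc, the matrix protein tenascin C, read 183, 114 and 139.8 CPM at 2 months and 27.98, 34.4 and 34.9 CPM at 2 years (log2 change -2.17, SE 0.20, edgeR adjusted p = 5.68e-05). Among collagen IV chains, Col4a4, Col4a2 and Col4a3 were 6.13, 5.17 and 5.24 fold lower. Of the laminins, Lamb3 read 564, 484 and 439 CPM at 2 months and 148, 249.9 and 159.6 CPM at 2 years and was 2.67-fold lower, and the integrins Itga3 and Itgb1 were 2.11 and 1.96 fold lower. In the other direction, Fras1, an extracellular protein of the basement membrane complex that also holds Frem2, read 4.79, 7.09 and 5.63 CPM at 2 months and 98.2, 45.5 and 86.6 CPM at 2 years, 13.3-fold higher (log2 change 3.73, SE 0.31, edgeR adjusted p = 4.58e-05), and Fbln7, a fibulin, rose 9.27-fold. Fras1 overlaps 3 other annotated genes. Frem2 was the third called higher, and lost its call without any 1 library other than replicate 3 of 2 years (edgeR adjusted p from 0.0506 to 0.165).

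Col17a1 (chr19:47646344-47692094), the collagen XVII of hemidesmosomes that is known for its loss from aged follicle stem cells, read 3255, 3124 and 3238 CPM at 2 months and 1706, 1452 and 2255 CPM at 2 years. These are RNA levels, and the protein was not measured here. All 3 old libraries lay below all 3 young ones, by 1.78-fold on average (log2 change -0.83, SE 0.25), but the gene was not called, with an edgeR adjusted p of 0.0577. It passed in the fit over all 24 libraries (edgeR adjusted p = 0.00693), on exon reads (0.0179), with no count filter (0.00533) and by DESeq2 (0.000255), and over all alternatives the adjusted p ran from 0.000255 to 0.2401. Itga6, its integrin partner in hemidesmosomes, read 478, 490.4 and 467 CPM at 2 months and 374, 279.9 and 382 CPM at 2 years and was not called (edgeR adjusted p = 0.142).

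**Figure D4:**
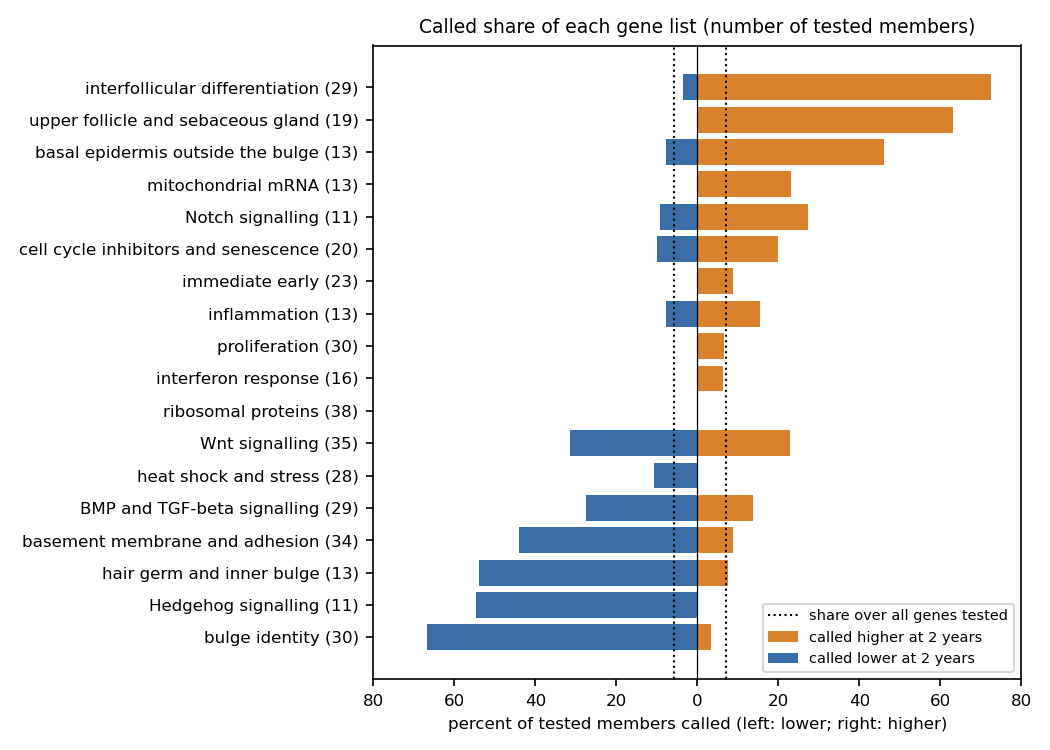
Percent of the tested members of each gene list called at 2 years against 2 months, lower to the left in blue and higher to the right in orange, for lists with at least 10 tested members, whose number is in brackets. Dotted lines mark the 5.7% lower and 7.05% higher over all genes tested. Interfollicular differentiation (21 of 29 higher) and bulge identity (20 of 30 lower) form the ends of the order, and 0 of 38 ribosomal protein genes were called.

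Of 30 proliferation genes, 2 were higher and 28 were not called, against 12.7% called over all genes, with a median log2 change of 0.53. Mki67 (chr7:135689784-135716361), present in cycling cells, read 84.5, 58.9 and 115 CPM at 2 months and 336, 183 and 176 CPM at 2 years, 2.69-fold higher (log2 change 1.43, SE 0.31, edgeR adjusted p = 0.014). Its adjusted p was 0.083 without replicate 1 of 2 months. Without that library 0 of the 30 genes were called, without replicate 3 of 2 months 4 were, and without replicate 2 of 2 months, 1 of 2 years or 2 of 2 years 1 was. Kif23, a kinesin of cell division and the other called member, had an edgeR adjusted p of 0.0333, which rose to 0.105 without replicate 1 or 2 of 2 months and to 0.108 and 0.0838 without replicate 1 and 2 of 2 years.

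Of 20 genes of cell cycle inhibition and senescence, 4 were higher, 2 were lower and 14 were not called (median log2 change 0.02). Cdkn2a (chr4:89274471-89294653), which encodes p16 and p19Arf, read 0.0939, 0 and 0.0741 CPM at 2 months and 3.93, 1.77 and 4.36 CPM at 2 years. It was at the floor of 3 reads or fewer in each young library, so the rise is at least 10.4-fold against 3 reads per library (edgeR adjusted p = 0.00231), and its level stayed low in the old libraries. Its neighbour Cdkn2b, which encodes p15, read 0.845, 0 and 1.48 CPM at 2 months and 12.8, 8.01 and 10.4 CPM at 2 years (log2 change 3.58, SE 0.66, edgeR adjusted p = 0.0055). Cdkn1a, which encodes p21, read 15.6, 9.86 and 16.1 CPM at 2 months and 23.7, 27.5 and 49.9 CPM at 2 years, and its edgeR adjusted p of 0.0218 became 0.054, 0.0701 and 0.0508 without replicates 1, 2 and 3 of 2 months and 0.0722 without replicate 3 of 2 years. Lmnb1, the lamin whose loss is a known sign of senescence, was 1.74-fold higher, a call lost without replicate 1 or 2 of 2 months (edgeR adjusted p = 0.0995 and 0.0912) or replicate 1 or 3 of 2 years (0.0752 and 0.0747). Igfbp7 and Igfbp3, secreted binding proteins, were 7.34 and 1.77 fold lower, and the Igfbp3 call was lost without replicate 3 of 2 months (edgeR adjusted p = 0.0597).

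Genes of stress and immune responses were called at shares on both sides of the 12.7% over all genes. Of 23 immediate early genes 2 (8.7%) were higher, Egr2 and Egr3. Fos read 64.6, 39.1 and 95.6 CPM at 2 months and 87.2, 40.2 and 97.04 CPM at 2 years, with no call. Egr2 and Egr3 lost their call without replicate 1 of 2 months (edgeR adjusted p = 0.0557 for Egr2 and 0.0856 for Egr3) or replicate 1 of 2 years (0.0548 and 0.109). The list's calls numbered 0 without replicate 1 of 2 years, 1 without replicate 3 of 2 months and 4 without replicate 2 of 2 months, when 1 was higher and 3 were lower. Of 28 heat shock and stress genes 3 (10.7%) were lower: Hsph1, a chaperone, by 3.91 fold, Hspb1, a small heat shock protein, by 2.19 fold and Gclc, of glutathione synthesis, by 3.62 fold. Of 16 interferon response genes 1 (6.25%) was higher, Cd74, the invariant chain of class II antigen presentation. Of 13 inflammation genes 2 were higher and 1 lower (23.1% called). Il33, an alarmin of keratinocytes, read 2.82, 2.93 and 3.63 CPM at 2 months and 18.2, 19.97 and 22.01 CPM at 2 years (log2 change 2.67, SE 0.27, edgeR adjusted p = 9.87e-05). Without replicate 3 of 2 months 1 inflammation gene was called, and without any 1 library other than replicate 3 of 2 years 2 or 3 interferon genes were. Of 13 mitochondrial mRNAs 3 (23.1%) were higher, with a median log2 change of 0.60. Only 1 was called without replicate 3 of 2 months or replicate 1 of 2 years. Of 38 ribosomal protein genes 0 were called by edgeR, with 1 at an unadjusted p under 0.05 and 1 called by DESeq2.

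Markers of other cell types were read in the same libraries, and their part in the results above was not tested. All 8 melanocyte genes were called, 7 of them higher. Dct, a melanin enzyme, read 1.88, 3.39 and 3.63 CPM at 2 months and 34.2, 117 and 110 CPM at 2 years (log2 change 4.87, SE 0.55), and Kit, a receptor of melanocytes, read 0.0939, 0.771 and 0.890 CPM at 2 months and 11.5, 25.6 and 22.1 CPM at 2 years (log2 change 5.05, SE 0.57). Mitf was the one called lower, at 101, 224 and 96.4 CPM at 2 months and 65.9, 50.1 and 48.9 CPM at 2 years, with a call lost without any 1 of the 3 old libraries (edgeR adjusted p = 0.0513, 0.0779 and 0.0935) and on exon reads. The summed level was 108, 234 and 104 CPM at 2 months and 142, 279 and 267 CPM at 2 years, the ranges of the ages overlapped, and Mitf made up most of the level at 2 months.

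All 5 erythroid genes were higher, among them the near-identical copies Hba-a1 and Hba-a2, and their sum read 3.29, 3.70 and 5.71 CPM at 2 months and 82.2, 120.4 and 64.1 CPM at 2 years. Alas2, the heme enzyme of red cell precursors, was among them with an edgeR adjusted p of 0.042, which was 0.0557 and 0.137 without replicates 1 and 2 of 2 months and 0.111 and 0.102 without replicates 1 and 2 of 2 years. The T cell list summed to 2.63, 1.70 and 3.34 CPM at 2 months and 56.9, 35.9 and 21.7 CPM at 2 years, of which Thy1 made up 1.41, 0.925 and 1.63 and 40.5, 34.4 and 18.6, while Cd8a was at 0 in all 6 libraries and Cd3e read 4.38, 0.208 and 0.379 CPM at 2 years. In the Langerhans and myeloid list Ptprc, Cd74 and Epcam were the 3 of 5 tested genes called higher, C1qb was at 0 in all 6, Cd207 was at 0 in old replicates 2 and 3, and the sum read 29.96, 15.3 and 32.1 CPM at 2 months and 89.04, 53.6 and 99.8 CPM at 2 years. The Epcam call (edgeR adjusted p = 0.0422) was lost without replicate 1 (0.115) or 3 (0.059) of 2 months and without replicate 1 (0.111) or 3 (0.124) of 2 years. Mbp was 14.96-fold higher and Sox10 11.7-fold higher in the Schwann cell list of 5 tested genes, of which 3 were not called. Sox10 is also 1 of the 8 melanocyte genes.

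The remaining lists, apart from skeletal muscle, went the other way or were not called. The fibroblast sum read 309, 308 and 246 CPM at 2 months and 69.6, 80.4 and 90.5 CPM at 2 years, with 4 of 6 tested genes lower and 1 higher, mostly through Col6a1, a collagen VI chain, at 189.8, 141 and 107 against 16.1, 11.8 and 23.7 CPM. The one called higher was Dcn, the proteoglycan decorin, whose call was lost without replicate 1 or 3 of 2 months or 3 of 2 years (edgeR adjusted p = 0.0951, 0.0965 and 0.0893). The collagens Col1a2 and Col3a1 were at or under 4.15 CPM in every library. Of 9 endothelial genes 0 were called by edgeR, with 6 at an unadjusted p under 0.05 and 5 called by DESeq2, while 2 were lower without replicate 1 of 2 months and 1 without replicate 3 of 2 years, and the sum read 116, 311 and 226 CPM at 2 months and 77.2, 42.8 and 122 CPM at 2 years. In the smooth muscle and pericyte list Cspg4, a proteoglycan, was the one called, at 389.5, 327 and 338 CPM at 2 months and 85.9, 115 and 101 CPM at 2 years (log2 change -1.81, SE 0.18), while Des and Rgs5 were at or under 0.520 CPM. The adipocyte list had 1 tested gene, Fabp4, which was lower, a call lost without replicate 1 of 2 years, in the fit over all 24 libraries and with the sex term (edgeR adjusted p = 0.0671, 0.16 and 0.0546). The Merkel cell list had 2, of which Krt8 was lower at 73.8, 33.6 and 45.97 CPM at 2 months and 8.40, 4.68 and 7.49 CPM at 2 years, with Atoh1 at 0 in all 6 libraries. The skeletal muscle sum read 4.98, 7.55 and 5.86 CPM at 2 months and 12.1, 11.3 and 10.4 CPM at 2 years, and its 1 called gene, Atp2a1, lost its call without any 1 library other than replicate 3 of 2 years (edgeR adjusted p from 0.0655 to 0.1025).

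To ask whether the change with age in HFSC differed from that in the epidermal stem cells of the same series, the HFSC change was tested against the mean change of LRC and nLRC in 1 fit of all 24 libraries. Of 18643 genes tested, 693 or 3.72% were called by edgeR, 271 (1.45%) with a change more positive in HFSC and 422 (2.26%) with one more negative. At an unadjusted p under 0.05 there were 2152 genes. Values that follow are on the scale of all 24 libraries. Sex-linked genes went together in same-numbered libraries of an age. They summed to 862, 786.5 and 488 CPM in LRC, nLRC and HFSC of replicate 1 of 2 months. In replicate 2 of 2 months the sums were 158, 165 and 144 CPM. Whether the 3 populations were sorted from the same mice is not given, and the fit took all libraries as independent. Of the 36 panel genes 22 were called in this test, as were 8 of the 12 largest rises and 11 of the 12 largest falls. The rises and falls were picked by the same HFSC change that enters this test, and the panel with earlier results known. These counts are therefore no separate support for a change particular to HFSC.

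Cd34 had the means 140.4 and 10.3 CPM in HFSC at 2 months and 2 years, 0.325 and 3.76 CPM in LRC and 0.117 and 6.18 CPM in nLRC. The HFSC level thus fell while the levels of the other populations rose from a few reads, a difference of -8.33 on the log2 scale (SE 0.71, edgeR adjusted p = 1.94e-08), whose size is uncertain because those young epidermal libraries hold so few reads. Lhx2 changed in the same pattern, with 69.5 and 16.99 CPM in HFSC, 2.00 and 9.95 CPM in LRC and 0.190 and 6.70 CPM in nLRC (difference -5.71, SE 0.50, edgeR adjusted p = 2.75e-08). Vim, an intermediate filament not called in HFSC, read 17.9, 59.7 and 46.5 and then 28.3, 49.2 and 43.3 CPM in HFSC and 0.516, 0.788 and 0.829 and then 25.9, 44.1 and 33.3 CPM in LRC (difference -5.26, SE 0.54, edgeR adjusted p = 4.60e-07).

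Krt10 went the opposite way, from 47.6 to 2460 CPM in HFSC, against 1889 to 2434 CPM in LRC and 1336 to 3050 CPM in nLRC (difference 4.91, SE 0.39, edgeR adjusted p = 7.61e-09). Klf5, a factor of proliferating basal cells, went from 6.12 to 83.05 CPM in HFSC, while LRC held 74.8 and 91.4 CPM and nLRC 109.5 and 88.5 CPM (difference 3.76, SE 0.28, edgeR adjusted p = 2.41e-09). Plbd1, a phospholipase B-like protein, went from 2.40 to 46.5 CPM in HFSC, against 65.8 to 52.7 CPM in LRC and 57.7 to 58.4 CPM in nLRC (difference 4.3988, SE 0.36, edgeR adjusted p = 8.20e-09). In each of these genes the young HFSC libraries stood apart from all others, and the range of the old HFSC libraries overlapped that of old LRC and old nLRC. Mki67 rose in HFSC from 79.2, 53.1 and 108 to 303, 166 and 162 CPM, while LRC read 318, 472 and 659 and then 302, 229 and 189.8 CPM (difference 2.25, SE 0.38, edgeR adjusted p = 4.44e-04).

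The summed bulge list gives the same picture in 1 value per library. It read 9077, 9087 and 8667 CPM in HFSC at 2 months, 4294, 4072 and 4441 in LRC and 1763, 1841 and 1500 in nLRC, so the young populations were in 3 separate ranges. At 2 years it read 3248, 2867 and 3148 CPM in HFSC, 3227, 2966 and 3174 in LRC and 2735, 2780 and 2617 in nLRC. The ranges of HFSC and LRC overlapped, and every HFSC library lay above every nLRC library. The summed differentiation list read 1392, 1189 and 1278 CPM in young HFSC and 7668, 6362 and 10720 CPM in old HFSC, beside 8194, 7483 and 8529 in old LRC and 10410, 7757 and 12150 in old nLRC. Libraries labelled HFSC, LRC and nLRC were thus closer in both lists at 2 years than at 2 months. Single bulge genes differed in this. Cd34 read 9.44, 12.3 and 9.25 CPM in old HFSC, above 3.44, 6.43 and 1.40 in old LRC and 5.32, 6.14 and 7.08 in old nLRC. For Krt15 the ranges of the old populations overlapped. Every result above that calls a library HFSC at 2 years rests on that label.

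**Figure D5:**
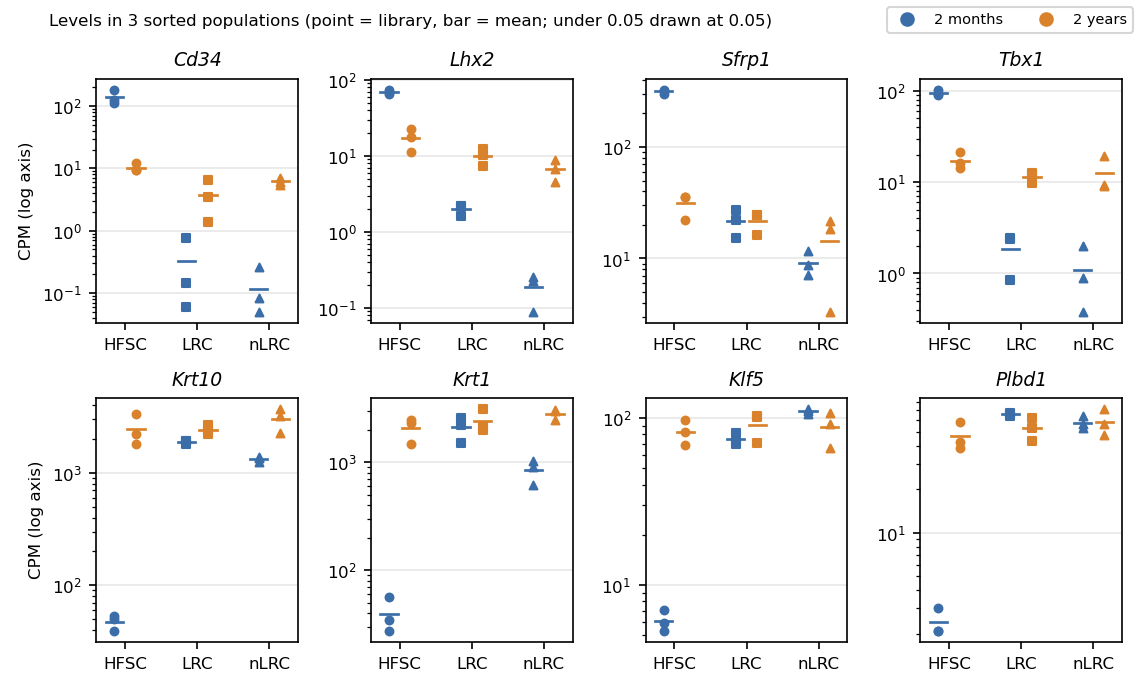
CPM on log axes of 8 genes in HFSC (circles), LRC (squares) and nLRC (triangles), 1 point per library with a bar at the mean, blue at 2 months and orange at 2 years. Cd34, Lhx2, Sfrp1 and Tbx1 are high in young HFSC alone, and Krt10, Krt1, Klf5 and Plbd1 are low in young HFSC alone. At 2 years the HFSC points lie nearer those of LRC and nLRC, as with Krt10 means of 2460, 2434 and 3050 CPM. For Cd34 the old HFSC points still lie above all old LRC and nLRC points.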

How the data were processed

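The deposited read counts per gene (total gene reads, introns included, per the file headers) of 24 libraries were used for all tests, and the RPKM values the authors deposited served only to recover exon reads, whole within 0.02 reads for 28814 of 28818 genes. Exon lengths were searched for until the reads came out whole, so that number is in part a product of the search. The length found equalled that of GENCODE M21 in 69.1% of 9463 well-covered genes. The submitters' processing notes name the build mm10, and the aligner, counting program, strand setting and annotation are not given in the sources used here. Coordinates are those of GENCODE M21 on GRCm38, which placed 47102 of 49585 genes. Tests used edgeR 4.0.16 under R 4.3.3 (TMM factors, filterByExpr over the groups fitted, robust quasi-likelihood fit, two-sided F test). The 6 HFSC libraries left 4 residual degrees of freedom and a common biological coefficient of variation of 0.301, and all 24 left 15 and 0.527. Standard errors are those implied by the F statistic. Alternatives were RLE factors, DESeq2 1.42.0, other filters, added terms, exon reads, the first library set alone (replicates 1 and 2, by the file names) and leaving out each library. A gene with 3 reads or fewer in each library of an age is at the floor, which covers counting error only since reads are not independent molecules.

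Named genes are the 12 strongest rises and the 12 strongest falls among called genes (average log2 CPM of at least 3, established symbol, no overlap between ages), a panel of 36 genes, called members of 33 lists, and, for the difference of age changes, the 6 with the smallest p in each direction. The members and lists were chosen with earlier results of these data known. Some genes that these rules take are not reported here. The tests were also run on simulated data, in a single run each, where most of the smaller changes were missed. Of the larger changes, some were missed in the comparison of the ages and most in the difference of age changes. A gene not called, above all in the difference, is therefore not shown to be unchanged. In the comparison of the ages, false calls made up a larger share of calls than the adjusted p of 0.05 allows.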

Additional observations from a re-analysis of the deposited data

Results flagged for a closer look

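Among the panel genes and the genes with the smallest p in the test of the difference, 30 changed with age differently in HFSC than in the mean of LRC and nLRC, 10 with a more positive and 20 with a more negative change (edgeR). Over all genes tested 3.72% were called. Genes with the smallest p were taken from those already called, and the panel was chosen with earlier results known. The count of 30 is therefore no separate support for a change particular to HFSC. The more positive differences on the log2 scale were 5.20 for Mettl7a3, 4.91 for Krt10, 4.76 for Krt1, 4.3988 for Plbd1, 4.3968 for Ano1, 3.76 for Klf5, 3.53 for Ly6a, 2.25 for Mki67, 1.65 for Krt14 and 1.61 for Axin2. The more negative ones were -10.08 for Grem1, -8.33 for Cd34, -7.62 for Ctgf, -7.02 for Sema3e, -5.71 for Lhx2, -5.53 for Tbx1, -5.31 for Gli1, -5.26 for Vim, -5.18 for Lgr5 and -4.47 for Timp2. Smaller ones were -3.68 for Sfrp1, -3.52 for Cxcl14, -3.45 for Dkk3, -2.88 for Sox9, -2.32 for Krt15, -1.93 for Runx1, -1.89 for Tcf7l1, -1.75 for Foxc1, -1.45 for Gas1 and -1.39 for Nfatc1. Grem1 was at a mean of 0 CPM in young nLRC and 0.0412 CPM in young LRC, so its fitted difference is no measure of size. Gli1 read at most 0.414 CPM in young LRC and 0.228 CPM in young nLRC. Cd34, Ctgf, Sema3e, Lhx2, Tbx1, Vim and Lgr5 read at most 2.18 CPM in young nLRC. The sizes of their differences are therefore uncertain too. Against LRC alone the calls of Krt15, Tcf7l1, Nfatc1, Foxc1, Runx1 and Axin2 were lost (edgeR adjusted p = 0.0924, 0.163, 0.207, 0.9999, 0.504 and 0.132), and against nLRC alone that of Gas1 (0.0709). Leaving out 1 library ended the call of Foxc1 in 5 of 6 cases (edgeR adjusted p from 0.0542 without replicate 3 of 2 months to 0.0826 without replicate 2 of 2 years), of Axin2 without replicates 1 or 3 of 2 months or 3 of 2 years (0.0953, 0.0684 and 0.12), of Runx1 without replicate 2 of 2 years (0.0748), of Tcf7l1 without replicate 1 of 2 years (0.0627) and of Gas1 without replicate 3 of 2 months (0.053).

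The HFSC libraries of 1.5 years are in no contrast above, although they share in the scaling and the estimate of the spread of the fits over all 24 libraries. In 9 of the 12 genes with the largest rise both of them lay above every young HFSC library. Those 12 genes were picked because the same young libraries were low, and the share over all genes was not counted. The count is therefore no separate support for the rises. The lower of those 2 libraries held 1864 CPM of Krt1, 1223 of Krt10, 51.2 of Tnfrsf19, 48.6 of Serpina3b, 41.8 of Serpina3j, 38.0 of Krt2, 12.8 of Serpinb3b, 12.2 of Tmprss4 and 4.89 of Hrnr, on the scale of all 24 libraries. All libraries of 1.5 years belong to a library set of their own, and the effects of age and of set cannot be separated there.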

How the results depend on the processing

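The count of 1792 called genes became 981 in the fit over all 24 libraries and 890 in the first library set alone, and ran from 1183 to 1807 when 1 library was left out (1183 without replicate 3 of 2 months). DESeq2 gave 2328, no count filter 2518, at least 10 counts in every library 1447 and exon reads 1790. Same-numbered libraries of both ages had deviations correlated at -0.083, 0.018 and 0.175 over genes, not every library correlated best with its own number, and a fit with the replicate number as a block gave 1551. The 693 genes of the difference became 1221 with the 18 libraries of 2 months and 2 years, 1530 with the replicate block on those 18, 443 against LRC alone and 1426 with a sex term (chosen after seeing the data), and 522 to 561 without 1 HFSC library. The cause of these shifts was not tested, apart from fewer libraries or genes where the setting says so. Of 183 called named genes, 112 kept their call in each of the 15 or 16 alternatives that gave them a value, 71 lost it in at least 1 and 0 changed sign. Uncalled genes near 0 did change sign. The log2 change of Fos ran from -0.1176 to 0.5112 without 1 library and was -0.1138 with the sex term. That of Vim was 0.0024 with at least 10 counts, 0.1118 with the replicate block, 0.0059 in the first set, 0.0582 on exon reads, 0.4635 with the sex term and -0.3999 to 0.3422 without 1 library. The difference of age changes of Itga6 was 0.0308 against nLRC alone and -0.1609 to 0.1011 without 1 library, and that of Krt5 was -0.0348 against LRC alone. Summed CPM at 2 years minus 2 months without TMM factors was -167.9 for fibroblast, 7.18 for skeletal muscle, -205.5 for smooth muscle and pericyte, 67.2 for Schwann cell and 6138 for mitochondrial mRNA genes. With 3 libraries an age no exact permutation p can go under 0.1, and depth limits genes near the floor, such as Cdkn2a.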

Other observations

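The HFSC libraries of 1.5 years lay near the old ones in some bulge genes and away from them in others. On the scale of all 24 libraries they read 8.09 and 10.3 CPM of Cd34, 522 and 343 CPM of Krt15, 17.9 and 15.2 CPM of Sfrp1 and 15.3 and 7.33 CPM of Lhx2, and the bulge list summed to 3094 and 3097 CPM. Nfib read 1109 and 1394 CPM, Runx1 141 and 138 CPM and Foxc1 43.7 and 39.9 CPM, above every young and every old HFSC library in each of these genes. Lgr5 read 30.4 and 128 CPM, against 66.2, 90.99 and 85.95 CPM at 2 months and 31.9, 11.2 and 15.5 CPM at 2 years, so its replicates of 1.5 years fell on opposite sides of the young ones' lowest value. Their upper follicle and sebaceous gland genes summed to 3981 and 3180 CPM, against 2423, 1320 and 1625 CPM at 2 years and 417, 371 and 549 CPM at 2 months. The erythroid genes summed to 260 and 14.9 CPM, so those libraries differed from each other.

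Some of the same cell type sums were higher at 2 years in the epidermal populations and others overlapped between the ages, with no test run on them. Erythroid genes read 1.80, 6.37 and 2.72 CPM in LRC at 2 months and 164, 124 and 17.6 CPM at 2 years, and 3.19, 3.12 and 2.85 and then 342, 139 and 154 CPM in nLRC. Melanocyte genes read 33.98, 38.7 and 34.9 CPM in LRC at 2 months and 119, 223 and 187 CPM at 2 years. T cell genes overlapped in nLRC, at 46.9, 49.02 and 63.2 CPM at 2 months and 56.98, 37.2 and 30.2 CPM at 2 years. Schwann cell and nerve genes overlapped there too, at 63.4, 55.8 and 48.4 and then 67.1, 50.7 and 58.6 CPM. Of the genes called in HFSC, 951 of those higher and 750 of those lower were protein coding, and 10 and 12 were long intergenic noncoding RNAs.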
